A study of Mus musculus with 16 samples.

Results

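The Hippo and YAP contact-inhibition genes comprise 10 named genes of the pathway by which neighbouring cells restrain each other's growth: Yap1, Wwtr1, Tead1, Tead4, Lats1, Lats2, Amotl1, Amotl2, Ankrd1 and Axl. They were taken by symbol, through the GENCODE vM21 annotation, from a count table of 39057 genes, by a rule that uses names and no measured value, although earlier results of these data were known when the genes were picked. All 10 passed the filter on low counts and were among the 12481 genes tested. The study sequenced poly-A RNA of untreated primary cortical brain endothelial cells grown to confluence, with 1 brain in each well and each well giving 1 library. The cells came from targeted replacement mice, in which human APOE3 or human APOE4 is expressed under the endogenous mouse promoter. There were 8 APOE3 and 8 APOE4 libraries, each with 4 males and 4 females, from mice labelled 21 to 28 days old, so all animals shared the same replacement design and differed by the APOE isoform and by sex. APOE3, the common human isoform, served as the comparison group for APOE4, the isoform linked to a higher risk of Alzheimer's disease, and no library came from a wild-type mouse.

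The Hippo pathway is a kinase cascade. When cells touch, the kinases LATS1 and LATS2 phosphorylate the coactivators YAP1 and TAZ (the product of Wwtr1), which are then held in the cytoplasm or degraded. When the cascade is quiet, YAP1 and TAZ enter the nucleus and, bound to TEAD transcription factors, switch on genes for growth and matrix, among them Ankrd1, Axl, Amotl2 and Lats2. In endothelium, junctions and the angiomotin scaffolds help to keep YAP1 and TAZ out of the nucleus, and both coactivators are known for their part in vessel growth. Because much of this control acts on phosphorylation and location, transcript levels measure the parts of the pathway and its output, not the activity of the kinases.

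Total counts ranged from 12717847 to 18624417 per library, and the TMM normalization factors from 0.988 to 1.020. Human APOE was counted 15504 to 22318 times in APOE3 and 7672 to 14722 times in APOE4, while mouse Apoe had 128 to 290 counts in the 16 libraries; such counts show that the human gene was present and do not tell the isoforms apart. Of a list of 12 endothelial markers, all passed the filter on low counts, which by itself does not settle cell identity. Their summed level was 13626 to 14514 CPM (counts scaled to the library size) in APOE3 and 13351 to 14667 CPM in APOE4. Of the 12, 3 had a log2 fold change of APOE4 over APOE3 above 0 and 9 below, from -0.29 to 0.08. edgeR called 0 of the 12 and limma voom 0, with 4 at an unadjusted p under 0.05 in each, while the DESeq2 Wald test called 3. Over all 12481 genes tested, edgeR called 1597, limma voom 1641 and the DESeq2 Wald test 1965. Cldn5, a tight junction gene of brain endothelium, was at 1342 ± 56.4 CPM in APOE3 and 1279 ± 60.6 CPM in APOE4 (SD, n = 8 each). Of the lists for other cell types, 8 of 12 mural, 5 of 8 fibroblast, 2 of 7 astrocyte, 0 of 7 microglia, 1 of 6 oligodendrocyte and 2 of 5 neuron markers passed the filter. In such bulk cultures, fewer cells of a type and less RNA per cell cannot be told apart.

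None of the 10 genes was called between APOE4 and APOE3, at an adjusted p under 0.05, in edgeR's quasi-likelihood test, which compares normalised counts with the spread between animals and adjusts over all genes tested. Of all genes tested, 1597, or 12.8%, were called in the same fit, 837 of them higher and 760 lower in APOE4. The 10 genes split into 5 with a higher and 5 with a lower mean in APOE4, and their median log2 fold change was -0.01, beside -0.00022 over all genes. At an unadjusted p under 0.05, 1 of the 10 passed (Tead4), against 29% of all genes. The DESeq2 Wald test and limma voom likewise called 0 of the 10 after adjustment, with 1 and 2 at an unadjusted p under 0.05. No member's 8 APOE4 libraries lay wholly above or below its 8 APOE3 libraries, a separation that 0.625% of all genes showed.

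The test was precise for most of these genes. For the 8 members other than Ankrd1 and Axl, the SD between animals of a genotype was 1.73% to 7.71% of the mean, and the standard error of the log2 fold change was 0.028 to 0.051. No bound of their 95% intervals lay farther from 0 than 0.22 on the log2 scale. Ankrd1 and Axl varied far more between animals, with SDs of 27.6% to 49.7% of the mean, and their intervals were correspondingly wide.

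**Figure D1:**
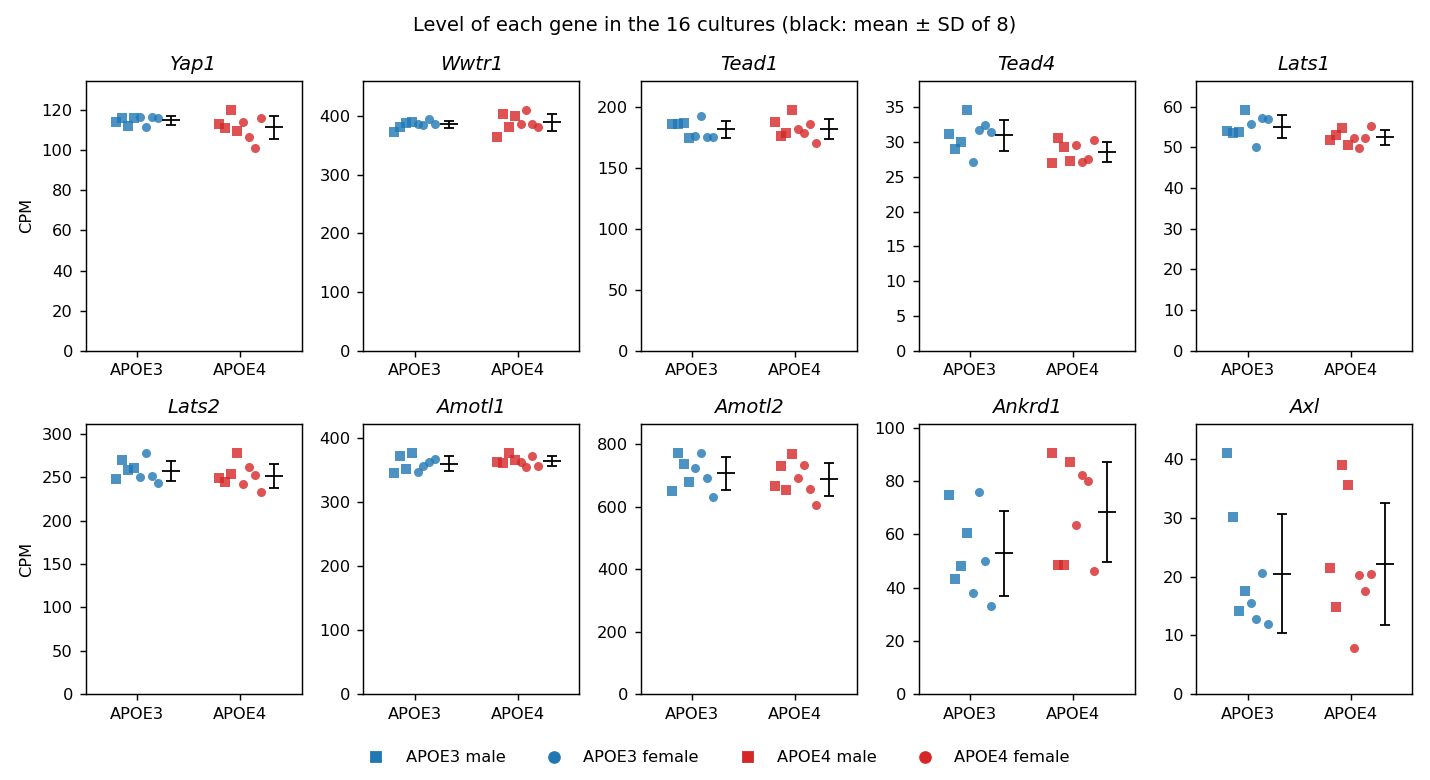
Level of each of the 10 genes in CPM (y axes, from 0, a scale of its own for each gene) in the 8 APOE3 (blue) and 8 APOE4 (red) cultures, with squares for males, circles for females and the mean ± SD beside each group. The groups overlap in every panel, and the points are tightly packed in all panels but those of Ankrd1, from 33.0 to 90.6 CPM, and Axl, from 7.87 to 41.1 CPM.

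Yap1 (mm10 chr9:7931999-8004596) and Wwtr1 (chr3:57455649-57575910) encode the coactivators. Yap1 was measured at 111.4 CPM in the lowest, 115.9 CPM in the median and 116.8 CPM in the highest APOE3 library, and at 100.9, 111.9 and 120.1 CPM in APOE4. The lowest and the highest value of all 16 libraries were both APOE4, and 2 of 8 APOE4 libraries exceeded the APOE3 median. The log2 fold change was -0.04 (95% interval -0.11 to 0.02), with an adjusted p of 0.386. Wwtr1 was measured at 372.2, 386.3 and 395.5 CPM in the lowest, median and highest APOE3 library and at 364.8, 385.9 and 410.3 CPM in APOE4. Its APOE4 values surrounded the APOE3 values on both sides, so that the SD was 14.8 CPM in APOE4 and 6.67 CPM in APOE3. The log2 fold change was 0.01 (95% interval -0.05 to 0.07), with an adjusted p of 0.802.

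Tead1 (chr7:112679318-112906807) and Tead4 (chr6:128224288-128300823) encode DNA-binding partners of the coactivators. Tead1 was measured at 174.7, 181.2 and 192.3 CPM in the lowest, median and highest APOE3 library and at 170.3, 180.4 and 197.6 CPM in APOE4, and the means of 181.6 ± 6.98 and 182.2 ± 8.33 CPM (SD, n = 8 each) were almost the same. Its log2 fold change was 0.0042 (95% interval -0.07 to 0.07), with an adjusted p of 0.951, and the sign of so small a value turned in 7 of the 16 fits that left out 1 library, down to -0.013 without APOE4 38. Tead4 was measured at 27.2, 31.3 and 34.6 CPM in the lowest, median and highest APOE3 library and at 27.0, 28.4 and 30.6 CPM in APOE4. All 8 APOE4 values lay below the APOE3 median, yet APOE3 libraries 30, 26 and 27, at 27.2, 29.0 and 30.0 CPM, stood within the APOE4 range. This was the difference with the smallest p of the 10 genes: log2 fold change -0.12 (SE 0.049, 95% interval -0.22 to -0.01), with an unadjusted p of 0.0297 and an adjusted p of 0.125.

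Lats1 (chr10:7681214-7716460) and Lats2 (chr14:57689662-57758388) encode the kinases that phosphorylate YAP1 and TAZ. Lats1 was measured at 50.1, 54.8 and 59.2 CPM in the lowest, median and highest APOE3 library and at 49.8, 52.2 and 55.2 CPM in APOE4. All but 1 of the 8 APOE4 values lay below the APOE3 median, while the ranges overlapped widely, and the log2 fold change was -0.07 (95% interval -0.15 to 0.01), with an adjusted p of 0.209. Lats2, which is also a transcriptional target of YAP1 and TAZ and thus a feedback brake, was measured at 243.2, 254.8 and 278.1 CPM in the lowest, median and highest APOE3 library and at 232.8, 250.8 and 278.0 CPM in APOE4. The highest libraries of both genotypes were nearly equal, and the log2 fold change was -0.03 (95% interval -0.11 to 0.04), with an adjusted p of 0.602.

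Amotl1 (chr9:14541966-14645056) and Amotl2 (chr9:102716672-102733418) encode angiomotin-like scaffolds of cell junctions, which bind YAP1. Amotl1 was measured at 345.8, 359.6 and 376.1 CPM in the lowest, median and highest APOE3 library and at 354.9, 362.9 and 376.5 CPM in APOE4, with a log2 fold change of 0.02 (95% interval -0.04 to 0.07) and an adjusted p of 0.735. Amotl2, like Lats2 both a regulator and a target, was measured at 631.0, 707.2 and 771.9 CPM in the lowest, median and highest APOE3 library and at 605.5, 679.1 and 768.7 CPM in APOE4. The log2 fold change was -0.04 (95% interval -0.14 to 0.07), with an adjusted p of 0.658. For neither scaffold did the genotypes separate, and the APOE4 values of Amotl2 covered almost the same range as those of APOE3.

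Ankrd1 (chr19:36111961-36120099) encodes an ankyrin repeat protein that is widely used as a readout of YAP1 and TAZ. It was measured at 33.0, 49.0 and 75.9 CPM in the lowest, median and highest APOE3 library and at 46.2, 71.7 and 90.6 CPM in APOE4. In APOE4, 5 of 8 values exceeded the APOE3 median, and the 3 others were close to it, at 46.2, 48.4 and 48.5 CPM. Ankrd1 had the largest difference of the 10 genes, with means of 52.9 ± 16.1 CPM in APOE3 and 68.3 ± 18.9 CPM in APOE4 (SD, n = 8 each) and a log2 fold change of 0.37 (SE 0.18, 95% interval -0.0011 to 0.74). The unadjusted p was 0.0506 and the adjusted p was 0.174, so the difference did not hold against the spread between animals.

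Axl (chr7:25757273-25788705) encodes a receptor tyrosine kinase of the TAM family and is also used as a YAP1 target. It was measured at 12.0, 16.5 and 41.1 CPM in the lowest, median and highest APOE3 library and at 7.87, 20.4 and 39.1 CPM in APOE4. In both genotypes 2 libraries stood above 30 CPM: APOE3 25 and 26, at 41.1 and 30.2 CPM, and APOE4 37 and 38, at 39.1 and 35.6 CPM. The other 12 libraries lay between 7.87 and 21.4 CPM. The log2 fold change was 0.11 (SE 0.28, 95% interval -0.48 to 0.70), with an adjusted p of 0.840, and its sign turned when a single library was left out: it was -0.06 without APOE4 37, -0.02 without APOE4 38 and 0.34 without APOE3 25.

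**Figure D2:**
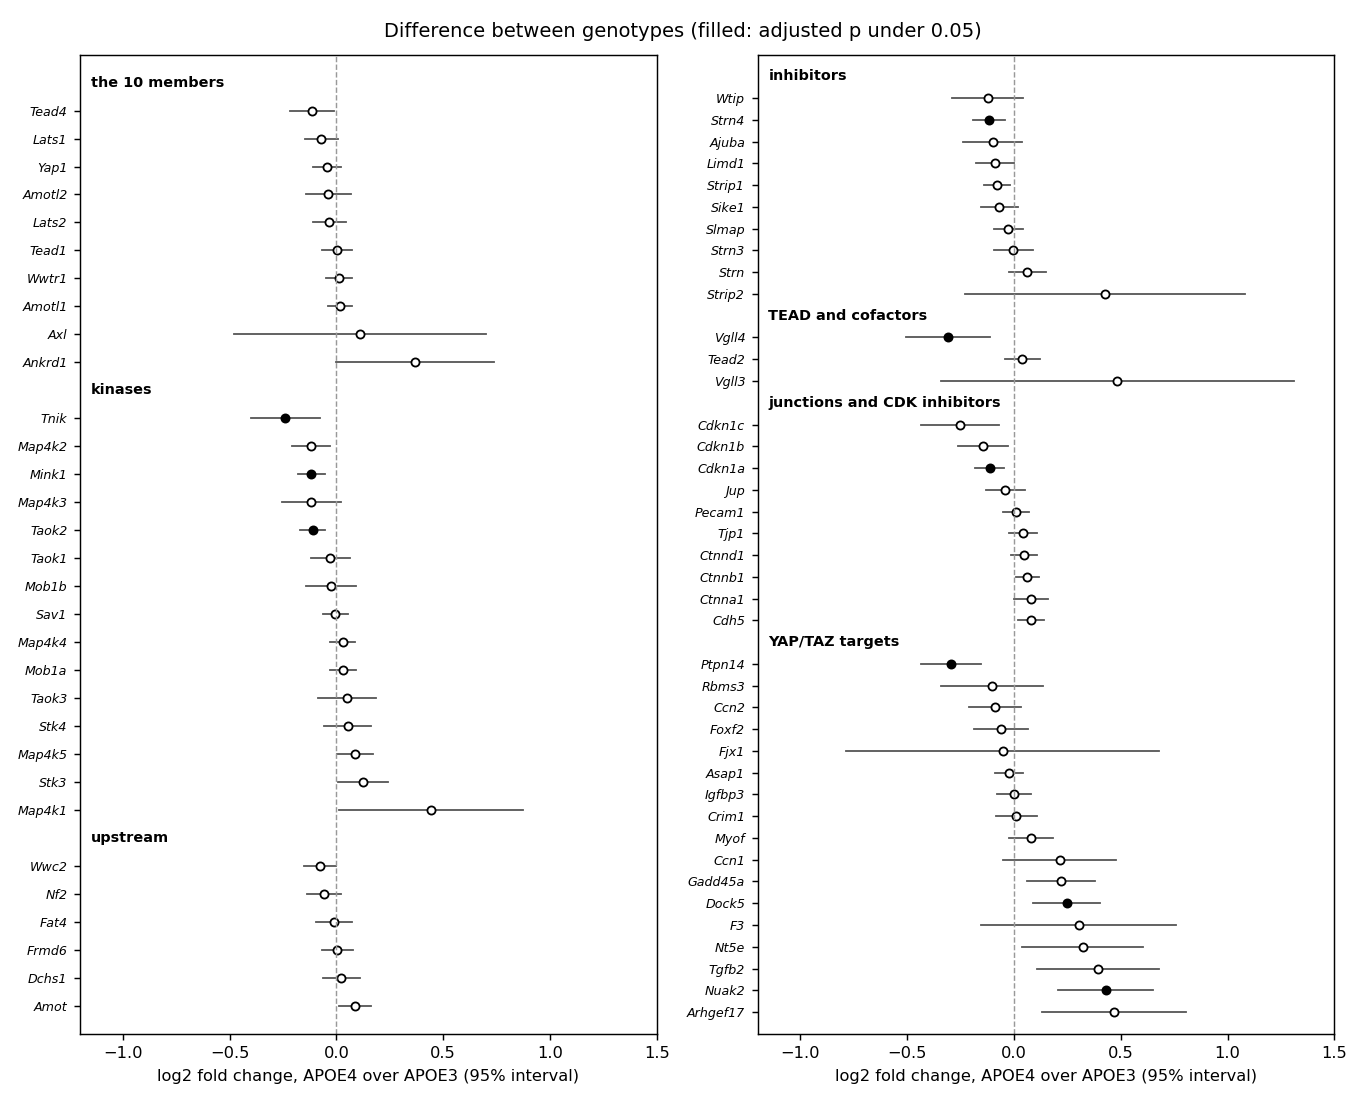
Log2 fold change of APOE4 over APOE3 (x axis) with its 95% interval for the 10 members and for other tested pathway genes and targets, all but 1, in 7 blocks by role, with filled points for an adjusted p under 0.05. All 10 members are open points, 9 of them within 0.12 of 0 and Ankrd1 at 0.37, and the 9 filled points belong to other genes: Tnik, Mink1, Taok2, Strn4, Vgll4, Cdkn1a, Ptpn14, Dock5 and Nuak2.

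Sex was compared in a fit of 4 groups, genotype by sex. None of the 10 genes was called for sex, as against 9 genes or 0.0721% of all genes tested, and 1 of the 10 had an unadjusted p under 0.05, while limma voom also called 0. That gene was Axl, at 25.7 ± 12.3 CPM in APOE3 males, 15.2 ± 3.94 CPM in APOE3 females, 27.7 ± 11.5 CPM in APOE4 males and 16.5 ± 5.93 CPM in APOE4 females (SD, n = 4 each). All 4 libraries above 30 CPM were males, as was the next, APOE4 35 at 21.4 CPM, while the other 3 males, at 14.2 to 17.5 CPM, lay within the range of the females, 7.87 to 20.7 CPM. The female minus male difference was -0.76 on the log2 scale (95% interval -1.27 to -0.25), with an unadjusted p of 0.0058 and an adjusted p of 0.9999. For the other 9 genes the difference between sexes was at most 0.11 in size.

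The genotype difference was also compared between the sexes. The test of genotype by sex called 0% of all genes tested, with 345 of them at an unadjusted p under 0.05, and 0 of the 10 genes at either threshold, and limma voom called 0 of the 10. The differences between the female and the male log2 fold change ran from -0.06 for Yap1 to 0.19 for Ankrd1. Ankrd1 was at 56.6 ± 14.2 CPM in APOE3 males, 68.7 ± 23.4 CPM in APOE4 males, 49.2 ± 19.1 CPM in APOE3 females and 68.0 ± 16.8 CPM in APOE4 females (SD, n = 4 each), so the APOE4 mean was the higher one in both sexes. With 4 animals in each group, the interval of that difference for Ankrd1, -0.58 to 0.96, was too wide to set the sexes apart.

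Counts divided by exon length allowed the levels of different genes to be ordered. Per kb of exon, Amotl2 was the highest of the 10 genes, at 110.9 ± 8.26 CPM per kb (SD, n = 16), followed by Wwtr1 at 81.0 ± 2.35, Lats2 at 36.5 ± 1.81 and Amotl1 at 36.0 ± 0.95. Ankrd1 came next at 21.0 ± 6.48 CPM per kb, then Tead1 at 13.4 ± 0.55, Yap1 at 12.2 ± 0.50, Tead4 at 8.27 ± 0.62, Lats1 at 7.37 ± 0.37 and Axl at 4.23 ± 1.98 CPM per kb. Lats2 and Amotl1 were not set apart, as Lats2 was the higher one in 8 of 16 libraries, 6 of them APOE3 and 2 APOE4. Tead1 exceeded Yap1 in 16 of 16 libraries although their ranges overlapped. Ankrd1 exceeded Tead1 in 15 of 16 libraries, Tead4 exceeded Lats1 in 15 and Lats1 exceeded Axl in 13, all with overlapping ranges. The remaining neighbours did not overlap in any library. The lengths were those of all annotated exons joined, which overstate the transcript in use where a gene has several forms, as may be so for Tead1 with 13570 bases.

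**Figure D3:**
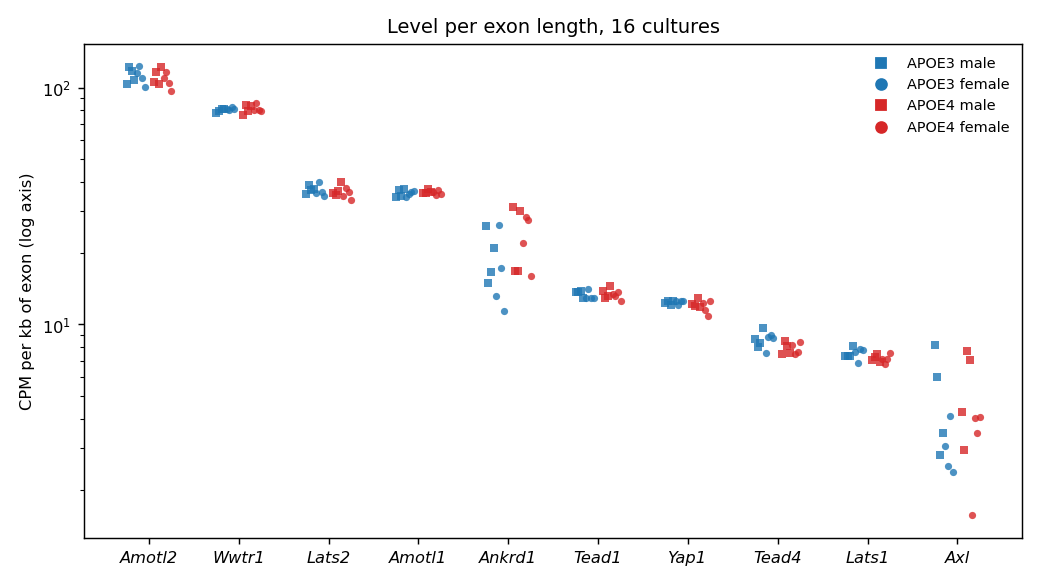
Level of the 10 genes in CPM per kb of exon (y axis, logarithmic) in each of the 16 cultures, ordered by the mean, in blue for APOE3 and red for APOE4 and with squares for males and circles for females. Amotl2 and Wwtr1 lie highest, between 76.3 and 122.7 CPM per kb, and Axl spreads the most, from 1.56 to 8.16.

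Per kb of exon, the levels favoured 1 gene in each pair of relatives. Wwtr1 was at 6.13 to 7.44 times the level of Yap1 over the 16 libraries. Lats2 was 4.41 to 5.80 times Lats1, and Amotl2 was 2.71 to 3.47 times Amotl1, while Tead4 was at 0.52 to 0.75 of Tead1. The size of these ratios depends on the joined exon lengths. Undivided, the APOE3 means were 385.5 CPM for Wwtr1 and 114.8 CPM for Yap1, and 257.7 CPM for Lats2 and 55.1 CPM for Lats1. They were 707.0 CPM for Amotl2 and 359.8 CPM for Amotl1, and 30.9 CPM for Tead4 and 181.6 CPM for Tead1. The ratios per kb were set against genotype with a two-sided exact permutation test over all 12870 ways to draw 8 of 16 libraries, adjusted over the 4 ratios. The mean ratio of Wwtr1 to Yap1 was 6.50 in APOE3 and 6.78 in APOE4, a log2 difference of 0.06 (exact permutation p = 0.176, adjusted p = 0.352). The ratio of Tead4 to Tead1 was 0.65 in APOE3 and 0.60 in APOE4, a log2 difference of -0.12 (exact permutation p = 0.0917, adjusted p = 0.352). The ratio of Lats2 to Lats1 was 4.91 and 5.03 (log2 difference 0.04, exact permutation p = 0.564, adjusted p = 0.564), and that of Amotl2 to Amotl1 was 3.15 and 3.03 (log2 difference -0.06, exact permutation p = 0.355, adjusted p = 0.474). No ratio passed the test against the spread between animals.

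The rest of the pathway was described with lists of kinases, upstream scaffolds, inhibitors, TEAD cofactors and junction and arrest genes. Of these 49 genes, 45 were tested and 6, or 13.3%, were called, close to the 12.8% of all genes. All 6 fell in APOE4, while 6.09% of all genes were called lower, and the median log2 fold change of the 45 was -0.0052. Among the 15 kinases and their partners, which include the core kinase genes Stk3 and Stk4, 3 were called lower. Taok2, a kinase that activates the core kinases, fell from 564.8 ± 15.8 to 522.7 ± 16.3 CPM (log2 fold change -0.11, adjusted p = 0.0168). Mink1 fell from 333.1 ± 13.3 to 306.8 ± 7.85 CPM (log2 fold change -0.12, adjusted p = 0.0166), and Tnik from 30.1 ± 3.27 to 25.5 ± 3.34 CPM (log2 fold change -0.24, adjusted p = 0.0485). Both encode kinases of the group that acts on LATS beside the core kinases. Tnik remained called in 5 of the 16 fits without 1 library and was lost without APOE3 25, 27, 28, 30 or 33 or APOE4 35, 36, 38, 39, 40 or 41, with adjusted p from 0.0224 to 0.110 over the 16. It was also lost with sex as a covariate (adjusted p = 0.0547), with 1 surrogate variable (adjusted p = 0.0543), with no filter on low counts (adjusted p = 0.0541) and by limma voom (adjusted p = 0.0538), with log2 fold changes of -0.22 to -0.24. The highest gene of the list, Map4k4, had a log2 fold change of 0.03 (adjusted p = 0.512).

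Of the upstream scaffolds, 7 of 8 were tested and none was called by edgeR, the DESeq2 Wald test or limma voom, with 2, 2 and 1 at an unadjusted p under 0.05. Of the 10 genes of inhibitors, which include the striatin complex that removes phosphate from the core kinases, 1 was called: Strn4 fell from 176.5 ± 5.86 to 162.6 ± 9.70 CPM (log2 fold change -0.12, adjusted p = 0.0366). The call was kept in 6 of 16 fits without 1 library, with adjusted p from 0.00986 to 0.0766, and lost without APOE3 26, 28, 30 or 33 or APOE4 35, 37, 38, 39, 40 or 41. It was also lost with no filter on low counts (log2 fold change -0.12, adjusted p = 0.0567). Of the 6 TEAD and cofactor genes 3 were tested, and 2 of the others were at or under 3 counts in every library. Vgll4, which competes with YAP1 for TEAD, fell from 94.3 ± 14.2 to 76.1 ± 12.0 CPM (log2 fold change -0.31, adjusted p = 0.0371). It remained called in 7 of 16 fits without 1 library, with adjusted p from 0.00906 to 0.0849, and was lost without APOE3 25, 28, 30 or 33 or APOE4 35, 38, 39, 40 or 41. All values are means ± SD of 8 libraries per genotype.

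Of the 10 junction and arrest genes, 1 was called, beside 12.8% of all genes. Cdkn1a, an inhibitor of cyclin-dependent kinases, fell from 251.2 ± 12.7 to 231.9 ± 5.08 CPM (SD, n = 8 each; log2 fold change -0.11, adjusted p = 0.0262), and stayed called in 14 of 16 fits without 1 library, being lost without APOE3 30 (adjusted p = 0.0618) or APOE3 33 (adjusted p = 0.0587). Cdh5, which encodes VE-cadherin, the main adhesion protein of endothelial junctions and the gene with the highest level per kb of the list, was at 3338 ± 136 and 3529 ± 83.4 CPM (log2 fold change 0.08, adjusted p = 0.0689, and 0.0297 by the DESeq2 Wald test).

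YAP and TAZ targets other than the members were given by a list of 18 genes, of which 17 were tested. edgeR called 3 of the 17, or 17.6%, beside 12.8% of all genes tested. At an unadjusted p under 0.05, 7 of the 17 passed, against 29% of all genes. Whether the list differs from all genes was not tested. The 3 called genes differed in direction, with 2 higher and 1 lower in APOE4, and the median log2 fold change of the 17 was 0.08. Ptpn14, a target that in turn restrains YAP1, fell from 1062 ± 107 to 865 ± 93.8 CPM (log2 fold change -0.30, adjusted p = 0.0107). Nuak2, a kinase gene, rose from 42.6 ± 7.37 to 57.3 ± 9.63 CPM (log2 fold change 0.43, adjusted p = 0.0146). Both calls were kept in all 16 fits without 1 library. Dock5, which encodes an activator of Rac, rose from 37.1 ± 4.36 to 44.1 ± 5.13 CPM (log2 fold change 0.25, adjusted p = 0.0358) and was kept in 7 of the 16, with adjusted p from 0.0119 to 0.0764, being lost without APOE3 26, 27, 30, 32 or 33 or APOE4 35, 38, 40 or 41. The best-known targets were not called: Ccn2, a secreted matrix protein gene and the highest of the list, was at 5090 ± 397 and 4783 ± 504 CPM (log2 fold change -0.09, adjusted p = 0.328), and its relative Ccn1 was at 913 ± 192 and 1059 ± 198 CPM (log2 fold change 0.21, adjusted p = 0.281). Ccn1 was named after its values were seen.

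Transcripts of growth markers moved with the genotype in these cultures. Of 25 cell cycle genes, all tested, 22 were called, beside 12.8% of all genes. All 22 rose in APOE4, while 837 of the 12481 genes tested were called higher. The median log2 fold change of the 25 cell cycle genes was 0.65. Their summed level was 1186 to 2352 CPM in APOE3 and 1943 to 3299 CPM in APOE4. Mki67, the gene of the proliferation marker Ki-67, was among the 6 with the smallest adjusted p. In the study's own sorting of genes that differed by genotype, cell cycle and differentiation was 1 of the categories. Its assays of confluent cultures found no genotype difference in cell density or in nuclei labelled with bromodeoxyuridine, its measure of proliferation. Such labelling was minimal in both genotypes. A cell cycle score, the mean log2 CPM of the 25 genes in each library, was also added to the model. With it, 0 genes of the whole table were called, 0 of the other pathway genes and 0 of the targets. The log2 fold change of Ankrd1 turned from 0.37 to -0.25 (SE 0.16, adjusted p = 0.767), that of Vgll4 from -0.31 to 0.06 and that of Dock5 from 0.25 to -0.0048. The score itself differs between the genotypes, so in this design it and the genotype cannot be told apart.

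Across the 16 cultures the 10 genes did not move as a block. After the genotype means were subtracted from the log2 CPM values, 22 of the 45 pairs had a correlation above 0, 6 had r above 0.5 and 5 had r below -0.5, with a median of -0.03. All such correlations describe 16 libraries that share a normalisation, and carry no p. Lats2 and Amotl2, both regulators and targets, had the highest r, 0.78 (rho 0.70, and r 0.67 without the 2 libraries farthest from the median of Lats2). Tead1 followed Lats2 with r 0.73, which fell to 0.46 without 2 libraries. Tead1 and Lats1 had the lowest r, -0.78 (rho -0.85, and -0.73 without the 2 libraries farthest from the median of Tead1). The coactivator genes Yap1 and Wwtr1 had r -0.31 over the 16, 0.26 within APOE3 and -0.40 within APOE4.

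**Figure D4:**
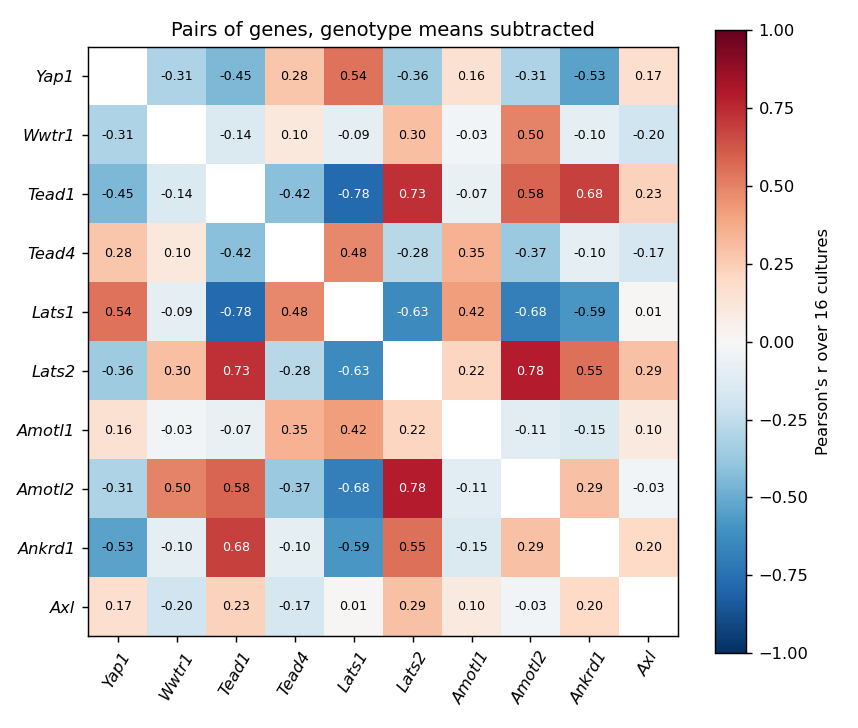
Pearson correlation of log2 CPM over 16 cultures for each pair of the 10 genes after subtraction of genotype means, in red above 0 and blue below 0, with the value written in each square. Tead1, Lats2 and Amotl2 have r of 0.58 to 0.78 with each other, Lats1 has r of -0.63 to -0.78 with those 3 genes, and Axl has no r beyond 0.29 with any gene.

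The genes most like each member were sought among all genes tested for the 3 members with the smallest p. Tead4 was most like Mbd2 (r 0.84), a reader of methylated DNA, and Hipk4 (r 0.79), which had few counts. Lats1 was most like Nav1 (r 0.96), a cytoskeletal gene, and Zswim7 (r 0.88). Ankrd1 was most like Chst12 (r 0.92) and Cfl1 (r 0.92), the latter the gene of the actin-severing protein cofilin. Without the 2 libraries farthest from the median of the member, these r stayed between 0.73 and 0.95. The 6 genes were picked for the highest r among all genes tested in the same libraries, so leaving out libraries is no independent check. How high an r such a search reaches by chance was not tested. Between the genotypes, the adjusted p of the 6 genes ran from 0.102 to 0.936 in edgeR's test.

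Ankrd1 also followed the summed levels of other lists over the 16 cultures. Its r was 0.77 with the 25 cell cycle genes (rho 0.83, 0.75 within APOE3 and 0.79 within APOE4), 0.76 with the 12 mural markers (rho 0.69) and -0.73 with the 12 endothelial markers (rho -0.74). Ankrd1 was not alone in this. With the cell cycle and endothelial sums, Tead1 had r 0.65 and -0.69, Lats2 0.48 and -0.65, and Lats1 -0.54 and 0.52. The mural sum was 192 to 360 CPM in APOE3 and 226 to 344 CPM in APOE4. edgeR called 0 of its 8 tested markers, with 2 at an unadjusted p under 0.05, beside 12.8% and 29% of all genes. For the same markers, limma voom called 0 and the DESeq2 Wald test 1. Most of the mural sum was Tagln and Acta2, genes of contractile actin fibres. The pericyte genes Cspg4 and Pdgfrb were at 7.05 ± 2.99 and 4.74 ± 2.01 CPM in APOE3 and at 7.64 ± 3.73 and 6.10 ± 1.34 CPM in APOE4 (SD, n = 8 each). The 4 markers of the list that did not pass the filter, Rgs5, Kcnj8, Abcc9 and Vtn, had means of at most 0.39 CPM in either genotype. These markers were named after their values were seen. The part of mural cells in the level of Ankrd1 was not tested. Amotl2 and Lats2 had r of 0.88 and 0.81 with the summed YAP and TAZ targets, the highest of the members. The others ran from -0.66 for Lats1 to 0.63 for Tead1, with 0.42 for Ankrd1 and 0.31 for Axl. That sum is weighted to its highest genes, Ccn2 first. Amotl2 was most like Crim1, a gene of that list (r 0.95, rho 0.96, named after its values were seen).

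**Figure D5:**
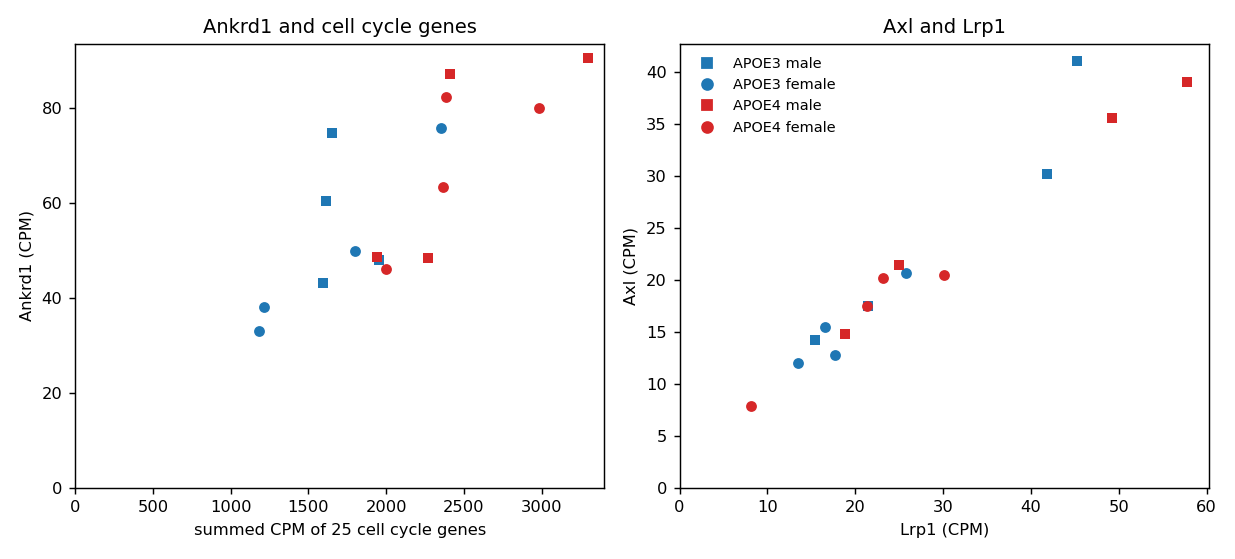
Left, Ankrd1 in CPM against the summed CPM of 25 cell cycle genes, and right, Axl against Lrp1 in CPM, in each of the 16 cultures, blue for APOE3, red for APOE4, squares for males and circles for females. Ankrd1 is highest, at 90.6 CPM, in the culture with the highest cell cycle sum, 3299 CPM, and the 4 cultures with Axl above 30 CPM are also those with Lrp1 above 40 CPM.

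Axl followed a different set of genes, which was looked at after its values were seen. It rose and fell with Lrp1, a lipoprotein receptor gene that also binds APOE, with r 0.98 (rho 0.96), and with the noncoding RNA H19 (r 0.97). Since 4 cultures stood apart in Axl, the relation was also taken within the other 12, where r was 0.96 for Lrp1 and 0.94 for H19. Lrp1 and H19 had the highest r with Axl of all genes tested in the same libraries. The values within the 12 are therefore no independent check. Col1a2, a collagen gene of the fibroblast list and also among the genes most like Axl, had r 0.96, and 0.91 within the 12. The values of Col1a2 were 25.2 to 45.9 CPM in the 4 cultures with Axl above 30 CPM and 3.15 to 18.2 CPM in the other 12. Cspg4, of the mural list, had r 0.95, and 0.90 within the 12, and the summed mural markers had r 0.55, and 0.57 within the 12. The defining fibroblast genes Dcn and Lum were near 0, with means of at most 0.22 CPM in either genotype, and the fibroblast sum as a whole, 337 to 441 CPM in APOE3 and 343 to 671 CPM in APOE4, had r -0.17 with Axl. That sum was mostly Apod, a lipocalin gene that rose from 353 ± 52.5 to 485 ± 109 CPM (SD, n = 8 each; log2 fold change 0.46, adjusted p = 0.0191) and was the only fibroblast marker called. The part of other cell types in the level of Axl was not tested.

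Promoter windows were available from RefSeq (GRCm38.p6, the assembly also called mm10) for 8 of the 10 genes, in 10 windows of 250 bases before to 50 after the annotated start. The core of the TEAD binding motif, GGAATG on either strand, was found in windows of 6 of these 8 genes, Wwtr1, Yap1, Amotl2, Lats2, Ankrd1 and Axl, and not in those of Amotl1 and Lats1. It was present in 14.7% of all 32851 windows, and 14.3% of 9548 tested genes with a window had it in at least 1. The longer form GGAATGT, which contains the core, was found for Amotl2, Axl and Yap1. It was present in 3.85% of all windows and for 3.36% of the tested genes with a window. The AP-1 motif TGANTCA was found in 7.81% of all windows, for 5.94% of those tested genes and in none of the 10 windows. A match of letters is a description and not a site of binding. Each match is given with 10 bases on each side, read 5′ to 3′ along the strand that holds the motif, which is in capitals, so that the flanks can be compared:
Ankrd1, chr19:36120039-36120064, minus strand: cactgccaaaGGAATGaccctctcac
Ankrd1, chr19:36119952-36119977, minus strand: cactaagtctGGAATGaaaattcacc
Axl, chr7:25788951-25788976, minus strand: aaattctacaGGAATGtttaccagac
Amotl2, chr9:102717729-102717754, minus strand: tgctatgccaGGAATGtgagagtttc
Lats2, chr14:57746104-57746129, minus strand: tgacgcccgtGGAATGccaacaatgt
Yap1, chr9:8004722-8004747, minus strand: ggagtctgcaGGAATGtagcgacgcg
Wwtr1, chr3:57576031-57576056, minus strand: taaactcaaaGGAATGcagataggcg

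Ankrd1 was the only 1 of the 8 genes with 2 matches, which began 210 and 123 bases upstream of the RefSeq start. The match in Axl began 233 bases upstream, that in Yap1 141 bases upstream, and that in Amotl2, on the strand opposite to the gene, lay 60 to 65 bases upstream. The match in Lats2 fell just inside the RefSeq transcript, at its bases 5 to 10. All these positions count from RefSeq starts. The windows with the matches in Lats2 (chr14:57746074-57746373) and Amotl2 (chr9:102717554-102717853) lie inside the GENCODE genes, which start farther upstream, at 57758388 and 102716672. For Ankrd1, the member with the largest difference between genotypes and the smallest p among those with a window, the whole window is printed 5′ to 3′ along the gene, with both matches in capitals. It lies at chr19:36119795-36120094 on the minus strand, inside the GENCODE gene, which runs from 36111961 to 36120099 and so starts farther upstream than the RefSeq transcript:
Ankrd1 promoter window: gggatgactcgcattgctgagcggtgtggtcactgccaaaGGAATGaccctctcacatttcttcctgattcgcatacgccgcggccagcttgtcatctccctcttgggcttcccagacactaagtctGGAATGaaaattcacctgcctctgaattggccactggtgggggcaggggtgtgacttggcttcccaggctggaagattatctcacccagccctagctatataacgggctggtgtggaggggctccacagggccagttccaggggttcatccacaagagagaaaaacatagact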

How the data were processed

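The deposited table held raw counts, whole numbers of reads per gene without normalization, 1 column per library. The authors' processing notes name STAR and featureCounts and the builds mm10 and hg38. Versions, annotation release and strand setting are not given in the sources used here. Libraries were strand-selected and amplified by 17 cycles of PCR without molecular identifiers, so depth covers counting error only. Each column was mapped to its culture, and 0 were left unmapped. Replicates were separate animals, and no batch was labelled.

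From these counts, edgeR 4.0.16 (in R 4.3.3) gave TMM normalization, the filterByExpr filter, and the quasi-likelihood F test of APOE4 against APOE3, with p-values adjusted by Benjamini and Hochberg's method over 12481 genes and a threshold of 0.05. CPM used the TMM library sizes, and log2 CPM a prior count of 2. Symbols, coordinates (mm10) and exon lengths came from GENCODE vM21, which held 38872 of 39056 mouse identifiers without regard to version. Permutation tests used scipy 1.17.1, and figures matplotlib 3.10.9. The test was tested on simulated data. Alternatives were DESeq2 1.42.0 size factors and Wald test, limma 3.58.1 voom, sva 3.50.0, 2 other filters, covariates for sex and cell cycle, and leaving out each library.

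Named genes were all members, and, from each other list, up to 6 called genes with the smallest adjusted p and the highest gene. For the 3 members with the smallest p, the 2 most correlated genes were also named. For the cell cycle and marker lists, some of these genes are covered by counts and sums. For 1 gene of the pathway lists, no single result is reported here. The members and lists were chosen with earlier results of these data known.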

Additional observations from a re-analysis of the deposited data

Results flagged for a closer look

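In 92 groups of 8 libraries, the gap of the highest or lowest library to its neighbour was compared with the range of the group, and 2 gaps exceeded Dixon's critical value of 0.526. Chance alone would pick out about 1 group in 20. In APOE4, replicate 36 had 557.8 CPM of Taok2, while the next library had 526.7 CPM, so the library nearest to APOE3 was the one apart. In APOE3, replicate 28 had 3.50 CPM of Hipk4, the gene second most like Tead4, while the next library had 1.97 CPM. The same library had the highest Tead4 of all 16, at 34.6 CPM. None of the 10 members had a library apart by this measure, the high Axl cultures coming in pairs.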

How the results depend on the processing

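No paired analysis was possible because APOE3 and APOE4 libraries share no replicate numbers. Of 58 results, 11 answered a comparison and 47 were single genes. The members' count stayed at 0 under each of the 8 other settings and the 16 fits without 1 library, for genotype, with 0 to 3 members at an unadjusted p under 0.05, and the count of changed paralog ratios stayed at 0. With DESeq2 size factors, the 53 results recomputed kept their direction and side of the threshold, as did the 47 recomputed with at least 10 counts in every library. The DESeq2 Wald test called 10 of the other pathway genes in place of 6, and 5 targets in place of 3. Over all 12481 genes it called 1965 in place of 1597, and the cause was not tested.

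With the mean log2 CPM of the cell cycle genes as a score in the model, 0 genes, 0 pathway genes and 0 targets were called. Fold changes (log2) then turned to 0.0038 for Yap1, -0.071 for Tead1, -0.25 for Ankrd1, 0.058 for Vgll4, -0.0048 for Dock5, 0.00056 for Cldn5, -0.15 for Tagln, 0.10 for Hipk4, 0.057 for Nav1, 0.45 for Zswim7, -0.081 for Chst12, -0.023 for Cfl1, -0.18 for Ccn1 and -0.048 for Crim1. The score rose with APOE4, so score and genotype cannot be told apart.

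Without 1 library, 846 to 2127 genes were called, against 1597 with all, and the count moved by over 1.5 times without APOE3 30 (853), APOE3 33 (952) or APOE4 41 (846). The other pathway genes ranged from 2 to 8 called, with 2 without APOE3 30 or 33 and 3 without APOE3 28 or APOE4 35, 39, 40 or 41. The targets ranged from 2 to 5, with 5 without APOE3 31 or APOE4 36 or 43. Log2 fold changes ranged from -0.013 to 0.017 for Tead1, -0.059 to 0.34 for Axl, -0.38 to 0.043 for Hipk4, -0.13 to 0.076 for Zswim7, -0.030 to 0.59 for Col1a2, -0.71 to 0.17 for H19 and -0.010 to 0.030 for Crim1.

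With 8 animals per genotype, the wide intervals of Ankrd1 and Axl left the size of their differences unsettled, and no smallest detectable difference was computed. Lower counts, as for Hipk4 and H19, limit the precision further.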
